A study of Bos taurus with 15 samples.

Results

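Intestinal calcium absorption across the cell was followed in cattle through 4 genes, which were chosen by their symbols out of 27270 listed genes and all of which were found. They are *TRPV6* (ENSBTAG00000024219), *S100G* (ENSBTAG00000017020), *ATP2B1* (ENSBTAG00000009552), and *VDR* (ENSBTAG00000016414). Their levels were read in barcodes with at least 1 UMI of *EPCAM*, a surface marker of epithelial cells, in single-cell RNA sequencing (scRNA-seq) libraries of newborn (NB) and adult (AD) Holstein cattle. The 11 NB libraries covered the stomach (omasum, reticulum, and abomasum), the small intestine (duodenum, ileum, and jejunum), the large intestine (rectum, colon, and cecum), the salivary gland, and the liver, and the 4 AD libraries covered cecum, colon, duodenum, and jejunum. The genes were chosen for these levels, so the levels are given as a description.

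In textbook accounts, calcium enters the enterocyte through the apical channel *TRPV6*, is carried across the cytoplasm by the small binding protein calbindin-D9k (*S100G*), and is pumped out at the basolateral side by the plasma membrane calcium ATPase *ATP2B1*. The vitamin D receptor, *VDR*, is a nuclear receptor that drives the transcription of the channel and of the binding protein when it is bound by the active hormone. A second route leads between the cells through tight junctions, whose claudins set the permeability to cations.

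Each tissue and stage had 1 library. Therefore, no test between groups could be made, and the intervals in brackets (95%, exact Poisson for UMIs and exact binomial for shares) cover counting error only. The AD tissues came from 1 lactating cow and the NB tissues from 3 calves, and the calf behind each NB library is not named in the sources used here. The AD duodenum and cecum were dissociated with a lamina propria kit and the AD jejunum and colon with a multi tissue kit, whereas the NB intestine was treated with EDTA and trypsin before enzymes of a lamina propria kit. Stage, animal, and dissociation cannot be told apart. After filtering, 10246 *EPCAM* barcodes remained in the 10 intestinal libraries, from 3513 in the NB duodenum to 202 in the AD duodenum. Levels are given in CPM, the UMIs of a gene scaled to the same total of UMIs over these barcodes in each library.

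The AD *EPCAM* barcodes also carried RNA of leukocytes. The leukocyte gene *PTPRC* was found in 73.3% of them in the AD duodenum, 37.8% in the jejunum, 55.6% in the cecum, and 60.9% in the colon, against 3.59% in the NB duodenum and at most 29.6% in the other NB intestinal libraries (NB cecum). The fibroblast collagen gene *COL1A2* was found in 33.5% of *EPCAM* barcodes in the NB cecum and 35.7% in the NB rectum, against at most 12.1% in the other intestinal libraries. Values are therefore also given for marker-free *EPCAM* barcodes, which have no UMI of *PTPRC*, of *COL1A2*, or of the endothelial gene *PECAM1*. Of these, 49 remained in the AD duodenum, 209 in the AD jejunum, 310 in the AD cecum, and 184 in the AD colon. In the NB cecum 256 of 635 remained, and in the NB rectum 563 of 1298. This selection did not remove RNA of *JCHAIN*, the joining chain of antibodies made by plasma cells, which stood in marker-free barcodes at 40771 CPM in the AD duodenum, 7941 in the AD jejunum, 1729 in the AD cecum, and 3825 in the AD colon, against 1.99 to 548 CPM in the NB intestine. In all *EPCAM* barcodes of the AD duodenum, 7 leukocyte genes including *JCHAIN* summed to 27773 CPM and 6 epithelial genes to 1278 CPM. The sums were 7259 and 4809 CPM in the AD jejunum, 5062 and 6579 in the cecum, and 5302 and 6564 in the colon. The part of leukocyte and fibroblast RNA in the results was not tested.

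*TRPV6*, the entry channel, was detected at a level above a few UMIs in 1 intestinal library only, the NB duodenum. There, 307 UMIs were counted in 257 of 3513 *EPCAM* barcodes, which gives 7.24 CPM (6.45 to 8.09). The NB ileum held 2 UMIs and the NB rectum 1 UMI, and none were found in the NB jejunum, cecum, and colon or in the 4 AD libraries. The upper limits of these zeros were 0.265 CPM in the NB jejunum, 0.523 in the NB cecum, 0.332 in the NB colon, 3.23 in the AD duodenum, 1.19 in the AD jejunum, 0.608 in the AD cecum, and 1.01 in the AD colon. The NB duodenum thus lay above every other intestinal library, and the remaining ones could not be ordered at this depth.

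The share of *EPCAM* barcodes with a *TRPV6* UMI in the NB duodenum was 7.32% (6.48 to 8.23), against 0.684% (0.222 to 1.59) in barcodes of the same library with *PTPRC* and no *EPCAM*, whose median depths were 11983 and 9969 UMIs. In CPM, the leukocyte barcodes held 0.696 (0.226 to 1.62) from 5 UMIs, which is 9.61% of the epithelial level. For 15 genes from the lists of epithelial and brush border markers the same ratio ran from 0.408% to 509%, with a median of 1.56%. The source of these 5 UMIs was not tested. After thinning each barcode to 1000 UMIs the shares were 0.600% and 0.169%.

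Outside the intestine, *TRPV6* was seen in the NB abomasum, the glandular stomach, at 0.949 CPM (0.726 to 1.22, 61 UMIs). Of these UMIs, 54 lay in the 2351 abomasum barcodes with at least 2 UMIs of the mucous cell genes *CLCA1* and *SPDEF*, where the level was 1.83 CPM (1.37 to 2.39), against 0.180 CPM (0.0660 to 0.392) in barcodes with none of the lists for cycling, mucous, enteroendocrine, and tuft cells. The intervals of the 2 sets do not overlap. In the NB duodenum the same mucous genes marked 146 barcodes with 2 *TRPV6* UMIs.

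*S100G*, the cytoplasmic calcium buffer, differed widely along the tract. In the NB duodenum, 755072 UMIs gave 17797.5 CPM, which is 1.78% of all UMIs of the *EPCAM* barcodes. The NB jejunum followed with 6113 CPM (6072 to 6154), or 0.611% of UMIs. Both upper parts of the newborn small intestine were therefore far above all other libraries.

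The 3 parts of the NB large intestine came next, at 1001 CPM (978 to 1025) in the cecum, 925 CPM (909 to 942) in the rectum, and 826 CPM (809 to 843) in the colon. The NB ileum was lower than each of them, at 129 CPM (121 to 136), so *S100G* did not decline evenly along the NB tract. Its barcodes also held the lowest sum of 12 microvillus and brush border enzyme genes, at 276 CPM against 438 to 1079 CPM in the other NB intestinal libraries. Their sum of 6 genes of cycling cells was the highest, at 1289 CPM against 265 to 395 CPM. The part of this in the ileum level was not tested. In the AD libraries, the duodenum held 224 CPM (198 to 254), the jejunum 56.4 CPM (48.3 to 65.4), the cecum 0.330 CPM from 2 UMIs, and the colon 0.274 CPM from 1 UMI. In the order of the 10 libraries, the intervals of all *EPCAM* barcodes overlapped only between AD cecum and AD colon. In marker-free barcodes the AD duodenum stood at 831 CPM, from 49 barcodes, close to the NB colon at 893 CPM. The distance between them therefore depended on which barcodes were taken. The stomach libraries held at most 0.162 CPM in *EPCAM* barcodes (NB reticulum).

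**Figure D1:**
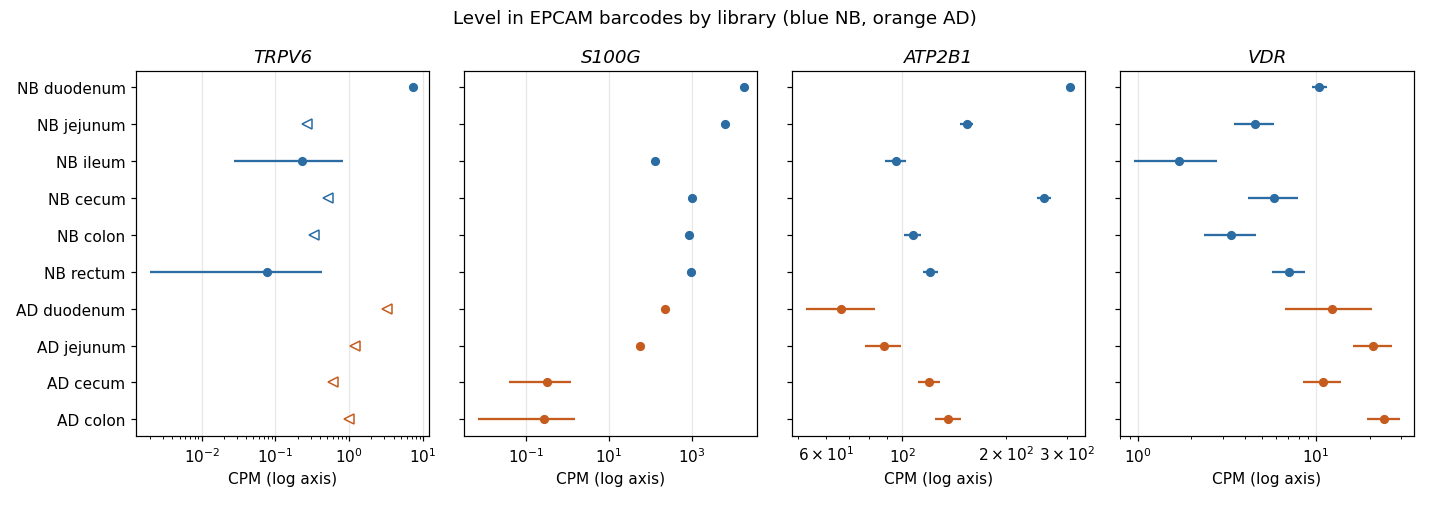
Level in *EPCAM* barcodes of each intestinal library (CPM, log axis, 1 panel per gene), where points are single libraries, bars are 95% Poisson intervals, blue is NB, orange is AD, and open triangles mark the upper limit of a count of 0. *S100G* spans 0.274 to 17797.5 CPM, *TRPV6* stands above its zeros in the NB duodenum, and *ATP2B1* stays between 66.6 and 305 CPM.

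The mean hid very different barcodes. In the NB duodenum, the median *EPCAM* barcode held 6843 CPM of *S100G* and 43.9% of barcodes exceeded 10000 CPM, and in the NB jejunum the median was 1225 CPM. In the NB ileum, cecum, colon, and rectum the median barcode held none, and the top 10% of barcodes carried 96.1%, 95.3%, 98.4%, and 86.0% of the UMIs. Thus the gene was spread over most epithelial barcodes in the upper small intestine and was concentrated in a minority below it. In the AD duodenum, the 256 UMIs lay in 11 of 202 barcodes, 5 barcodes above 1000 CPM carried 93.4% of them, and 1 barcode alone held 160. The AD duodenum value therefore rests on very few barcodes. In the AD jejunum, 4 of 341 barcodes lay above 1000 CPM and carried 65.1% of the UMIs. Of its 209 marker-free barcodes, 4 carried 71.25%.

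**Figure D2:**
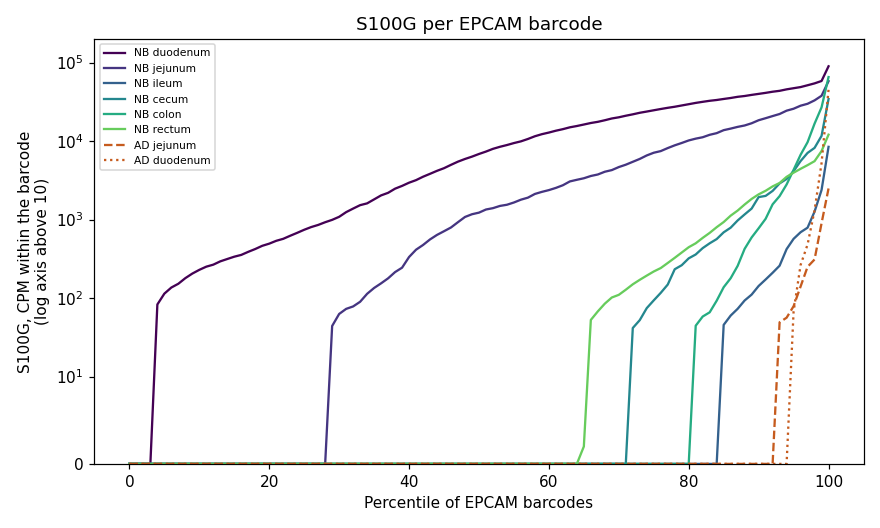
*S100G* within single *EPCAM* barcodes (CPM, log axis above 10) against the percentile of barcodes in 8 libraries, with AD libraries in orange. The NB duodenum curve leaves 0 first and has a median of 6843 CPM, while the curves of the NB ileum and both AD libraries stay at 0 for most barcodes.

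Shares of barcodes with a UMI were read against the leukocyte barcodes of the same library, since these also held *S100G* UMIs. The source of the UMIs in leukocyte barcodes was not tested. In the NB duodenum, 96.5% of *EPCAM* barcodes and 89.6% of leukocyte barcodes had a UMI, but the leukocyte level was 273 CPM, 1.53% of the epithelial level. The median ratio of the 15 epithelial and brush border genes in that library was 1.56%, so the ratio of *S100G* was near that of the middle gene. After thinning to 1000 UMIs the shares were 78.3% and 26.8%. Unthinned, they were 71.6% and 28.5% in the NB jejunum, 15.4% and 0.725% in the NB ileum, 28.5% and 7.69% in the NB cecum, 19.8% and 6.54% in the NB colon, and 35.0% and 11.0% in the NB rectum. The AD jejunum had 7.62% and 0.410%, and the AD duodenum 5.45% and 0.824%. Median depths of the epithelial and leukocyte barcodes were 4301 to 11983 and 3655 to 11360 UMIs, and in all 8 libraries the epithelial share was the higher one both unthinned and thinned. In leukocyte barcodes of the AD duodenum *S100G* stood at 11.6 CPM, 5.18% of the epithelial level, and 6 of 7043 barcodes carried 82.1% of these UMIs.

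The barcodes rich in *S100G* in the NB large intestine were also rich in the same further genes in all 3 parts. There were 82 barcodes above 1000 CPM in the cecum, 91 in the colon, and 193 in the rectum. Of 6415 genes, the one with the largest excess in all 3 libraries, taken by its smallest log2 difference, was *AQP8*, a water channel. It stood at 2239 CPM against 141 CPM in the cecum, 680 against 5.29 in the colon, and 337 against 43.1 in the rectum. The next genes were *FABP1* (a fatty acid binding protein), *LYPD8* (a protein of the large intestinal surface), *TGM3* (a transglutaminase), and *KRT20* (a keratin of differentiated epithelium), followed by *BDH1* (an enzyme of ketone metabolism), *SLC40A1* (the iron exporter ferroportin), and *CA1* (a carbonic anhydrase). *SLC40A1* stood at 1376 CPM against 41.2 CPM in the colon. These genes were named after their values had been seen, and barcodes chosen by *S100G* give no test. *EPCAM* itself was higher in the rich barcodes of the cecum (1531 against 574 CPM) and rectum (1439 against 727 CPM). In the colon it was nearly equal (1154 against 1142 CPM). The part of other lineages in the comparison was not tested. Median depths of the rich and the other barcodes were 7519 and 9445 UMIs in the cecum, 8419 and 9252.5 in the colon, and 17302 and 7392 in the rectum. *CALB1*, which encodes the related buffer calbindin-D28k, was also higher in these barcodes, at 256 against 38.5 CPM in the cecum, 119 against 22.0 CPM in the colon, and 56.1 against 14.5 CPM in the rectum.

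A brush border score, the share of UMIs from 12 microvillus and brush border enzyme genes that do not include the 4 members, was used to order the *EPCAM* barcodes of each library into 4 equal bins. *S100G* was higher in each bin than in the one before it in the NB duodenum, at 1856, 8377, 20873, and 32412 CPM, and in the NB jejunum, at 60.1, 1065, 4396, and 18071 CPM. In the top bin it reached 3513 CPM in the NB cecum, 2710 in the colon, 2515 in the rectum, and 341 in the ileum, with at most 354 CPM in any lower bin of these 4 libraries. The top bin was again the highest of each in marker-free barcodes, but the third bin held 1702 CPM in the rectum and 790 CPM in the cecum, and the lowest bin of the colon held 487 CPM. Even the lowest bin of the NB duodenum was above the top bin of the NB ileum. The score is a range and not a cell type, and the lower bins of most libraries hold barcodes with no UMI of the list. Bins were formed within each library, so the same bin can differ in score between libraries.

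The stages differed at scores that were alike in sum but not in makeup. The top bin of the AD jejunum had a median score of 2965 CPM and held 163 CPM of *S100G* (140 to 190), while that of the NB jejunum had a median score of 2690 CPM and held 18071 CPM. In marker-free barcodes the pair was 196 CPM at a score of 3599 and 20669 CPM at a score of 3142. Of the UMIs of the list in these marker-free bins, *ANPEP*, an aminopeptidase, made up 63.5% in AD and 17.0% in NB. Hence the lower AD level in the jejunum was also seen in barcodes with a high sum of brush border genes, most of it from 1 gene in AD. The part of this makeup in the difference was not tested. In the AD cecum and colon the top bins held 1 *S100G* UMI each.

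Within the NB duodenum, *S100G* also differed between marked barcodes. It stood at 21976 CPM in barcodes with none of the lists, 6595 in cycling barcodes, 3846 in the 30 barcodes with enteroendocrine genes, and 1614 in those with mucous genes. In the NB jejunum, cycling (2875 CPM) and mucous barcodes (198 CPM) also lay below the unmarked ones (9543 CPM). The level in leukocyte barcodes of the NB duodenum was 273 CPM, and its source was not tested.

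*ATP2B1*, the basolateral pump, was found in all libraries and in each lineage with at least 50 barcodes. In *EPCAM* barcodes, it stood at 305 CPM (300 to 310) in the NB duodenum, 257 (245 to 269) in the NB cecum, 154 (147 to 160) in the NB jejunum, 120 (114 to 126) in the NB rectum, 107 (101 to 113) in the NB colon, and 95.6 (89.3 to 102) in the NB ileum. The AD values were 136 CPM (124 to 148) in the colon, 119 (111 to 128) in the cecum, 88.3 (78.1 to 99.4) in the jejunum, and 66.6 (52.5 to 83.4) in the duodenum. The NB duodenum and NB cecum stood apart from all others, and each library below them overlapped with the next in order.

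The pump was also found outside the epithelium. Its level in leukocyte barcodes was 161% of the epithelial level in the AD jejunum, 52.1% in the AD cecum, and 69.5% in the NB duodenum, and in barcodes with *COL1A2* it reached 323 CPM in the NB duodenum and 314 CPM in the NB colon. Among leukocyte barcodes, those with the macrophage genes *CD68* or *C1QA* held 118 to 252 CPM in the 10 intestinal libraries, and those with the T cell gene *CD3E* held 53.0 to 112 CPM. The macrophage barcodes were higher than the T cell barcodes in each of the 10 libraries. In the NB rectum, 25 barcodes with the B cell gene *CD79A* held 240 CPM (188 to 301), above the macrophage barcodes at 176 CPM (163 to 189). In the other intestinal libraries where B cell barcodes were read, they lay below the macrophage barcodes.

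Along the brush border score, *ATP2B1* in the NB duodenum stood at 145, 207, 315, and 474 CPM. In the NB jejunum it was 136, 88.4, 105, and 300 CPM, in the NB cecum 208, 185, 209, and 406 CPM, and in the NB colon 85.6, 79.9, 86.2, and 174 CPM. The top bin was thus the highest in these 4 libraries. In the NB rectum the top bin held 135 CPM and the bottom bin 128 CPM, with overlapping intervals, whereas in marker-free barcodes the bottom and top bins held 73.8 CPM (57.4 to 93.3) and 142 CPM (125 to 161). Barcodes with mucous genes were low in this pump, at 58.4 CPM in the NB duodenum, 23.5 in the jejunum, 41.3 in the ileum, 47.0 in the colon, and 32.6 in the rectum, against 342, 195, 115, 129, and 131 CPM in unmarked barcodes of the same libraries. In the AD colon the 16 mucous barcodes held 215 CPM, against 128 CPM in unmarked ones.

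*VDR*, the vitamin D receptor, was a gene of low counts. Over all *EPCAM* barcodes it stood at 24.1 CPM (19.3 to 29.7) in the AD colon, 20.9 (16.2 to 26.7) in the AD jejunum, 12.3 (6.71 to 20.6) in the AD duodenum, and 10.9 (8.42 to 13.8) in the AD cecum. In the NB intestine it was 10.4 CPM (9.49 to 11.5) in the duodenum, 7.04 (5.67 to 8.65) in the rectum, 5.81 (4.17 to 7.88) in the cecum, 4.53 (3.48 to 5.79) in the jejunum, 3.33 (2.34 to 4.59) in the colon, and 1.70 (0.949 to 2.80) in the ileum. Neighbors overlapped at each step of this order except from the NB duodenum to the NB rectum. With a mitochondrial limit of 10% the order was different, and the NB duodenum was the highest of the 10 libraries at 18.1 CPM (16.1 to 20.2), overlapping with the AD jejunum at 14.2 CPM (9.07 to 21.1). This limit kept 1460 of 3513 barcodes in the NB duodenum and 167 of 202 in the AD duodenum.

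The receptor was more frequent in epithelium than in leukocytes in 9 of the 10 libraries. The share of barcodes with a UMI was 8.14% against 1.09% in the NB duodenum, 12.6% against 2.11% in the AD jejunum, and 12.5% against 1.52% in the AD colon, where median depths were 11983 and 9969, 7358 and 4447, and 5523.5 and 3920 UMIs. After thinning to 1000 UMIs these shares were 1.02% and 0.105%, 1.66% and 0.460%, and 1.65% and 0.383%. In the NB rectum it was 5.70% (4.50 to 7.10) in *EPCAM* barcodes and 5.89% (4.88 to 7.03) in leukocyte barcodes, whose intervals overlap. Leukocyte barcodes with *CD3E* in that library held 16.0 CPM (12.8 to 19.8), above the epithelial 7.04 CPM. In the NB ileum, 53 such T cell barcodes held 3 UMIs, or 13.8 CPM (2.84 to 40.2), also above the epithelial 1.70 CPM (0.949 to 2.80). The T cell barcodes held 0 *VDR* UMIs in the NB duodenum (34 barcodes, upper limit 23.0 CPM) and the NB jejunum (65 barcodes, 13.2 CPM), 3.74 CPM in the NB cecum, 3.60 in the NB colon, and 2.46 to 6.09 in the AD libraries. Barcodes with the B cell gene *CD79A* held 0 *VDR* UMIs in all 4 AD libraries, with upper limits of 1.06 to 3.62 CPM.

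**Figure D3:**
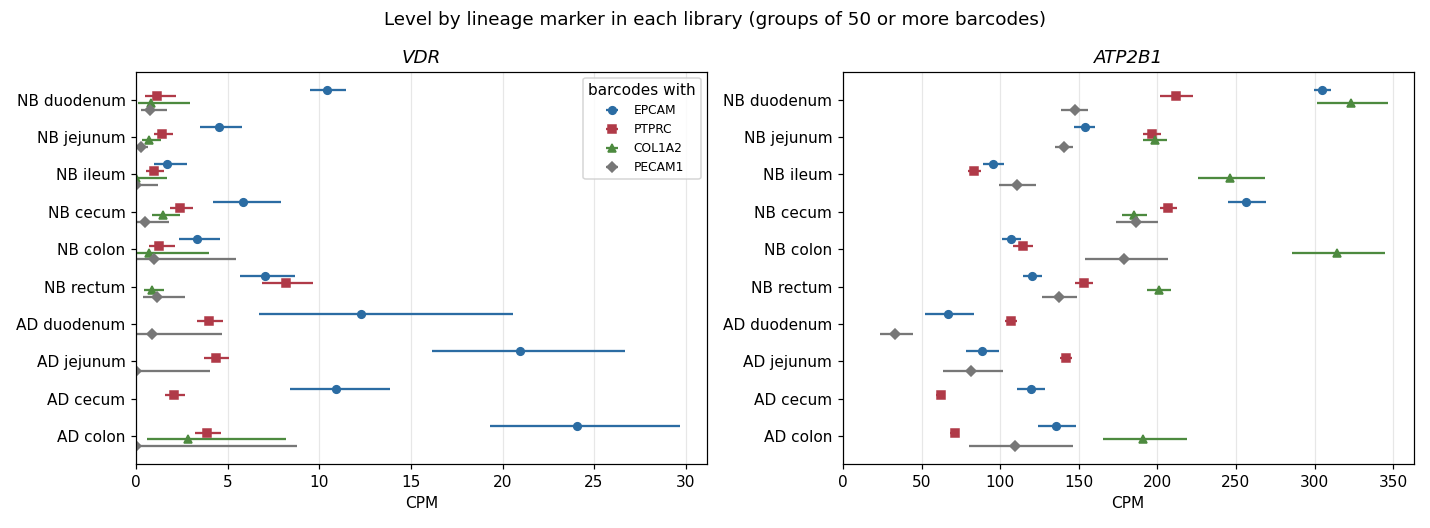
*VDR* (left) and *ATP2B1* (right) in CPM for barcodes with *EPCAM*, and for barcodes without it that carry *PTPRC* (leukocyte), *COL1A2* (fibroblast), or *PECAM1* (endothelial), in each intestinal library, with 95% Poisson intervals and without sets under 50 barcodes. *EPCAM* barcodes hold the highest *VDR* level except in the NB rectum (7.04 against 8.18 CPM in leukocyte barcodes), while *ATP2B1* is found in every set.

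*VDR* and *S100G* lay at opposite ends of the brush border score in the NB duodenum. From the lowest to the highest bin *VDR* stood at 12.2, 24.7, 5.86, and 1.70 CPM, and 12.4% of barcodes in the lowest bin carried *PTPRC*. In marker-free barcodes it was 26.5 (23.0 to 30.4), 15.5 (13.1 to 18.3), 3.79 (2.69 to 5.18), and 1.34 CPM (0.733 to 2.25), so that no 2 bins overlapped. In these barcodes the receptor was thus highest where the buffer, at 3804 CPM, was lowest. Cycling barcodes of this library held 24.7 CPM of *VDR* (21.5 to 28.3), against 7.24 CPM (6.33 to 8.24) in unmarked barcodes and 2.00 CPM in those with mucous genes.

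Single barcodes of the NB duodenum showed the same. The 286 barcodes with a *VDR* UMI held 5535 CPM of *S100G*, and the 3227 without one held 19078 CPM, although the former were deeper (median of 14609 against 11660 UMIs). The 257 barcodes with a *TRPV6* UMI all had *S100G*, as did 96.3% of the rest. They held 24764 CPM of it, against 16991 CPM in the rest, with medians of 18061 and 11473.5 UMIs. Channel and buffer were high in the same barcodes, whereas *VDR* stood at 6.14 CPM (4.04 to 8.93) in barcodes with *TRPV6* and 10.9 CPM (9.91 to 12.0) in those without. The shares of these barcodes with a *VDR* UMI were 8.56% and 8.11%. *TRPV6* stood at 6.23 CPM (4.03 to 9.20) in barcodes with *VDR* and 7.34 CPM (6.51 to 8.25) in those without, with overlapping intervals. In the other libraries, barcodes with a *VDR* UMI also held less *S100G* than the rest in the NB jejunum (4480 against 6219 CPM). The same held in the NB rectum (838 against 933 CPM) and, from 5 UMIs, in the AD jejunum (8.89 against 66.9 CPM). The intervals overlapped in marker-free barcodes of the NB rectum (1315 against 1422 CPM) and in the NB ileum (107 against 129 CPM). The NB colon went the other way, with 1991 against 769 CPM, as did the NB cecum, with 1313 against 976 CPM, although its marker-free barcodes held 1084 against 1491 CPM. *TRPV6* itself in the NB duodenum was 1.35, 6.43, 10.4, and 8.35 CPM along the bins, and its lowest bin did not overlap with the others.

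In marker-free barcodes of the AD jejunum *VDR* had the same order, at 48.4, 43.0, 15.6, and 12.5 CPM, with the first bin (30.3 to 73.3) above the last (5.73 to 23.8). The NB colon had the reverse order, at 0.842, 1.68, 3.80, and 7.87 CPM, though the intervals of the first (0.0213 to 4.69) and the last (4.66 to 12.4) just overlapped. In the NB ileum *VDR* held 0 UMIs in the lower 2 bins and stood at 3.44 and 4.85 CPM in the upper 2, with overlapping intervals. The NB jejunum, at 3.47, 8.37, 5.82, and 2.05 CPM, and the NB cecum, at 4.06, 16.0, 6.68, and 8.80 CPM, were highest in the second bin, with overlapping first and last bins. The AD colon, at 59.9 to 26.8 CPM, the AD cecum, and the NB rectum had first and last bins with overlapping intervals.

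**Figure D4:**
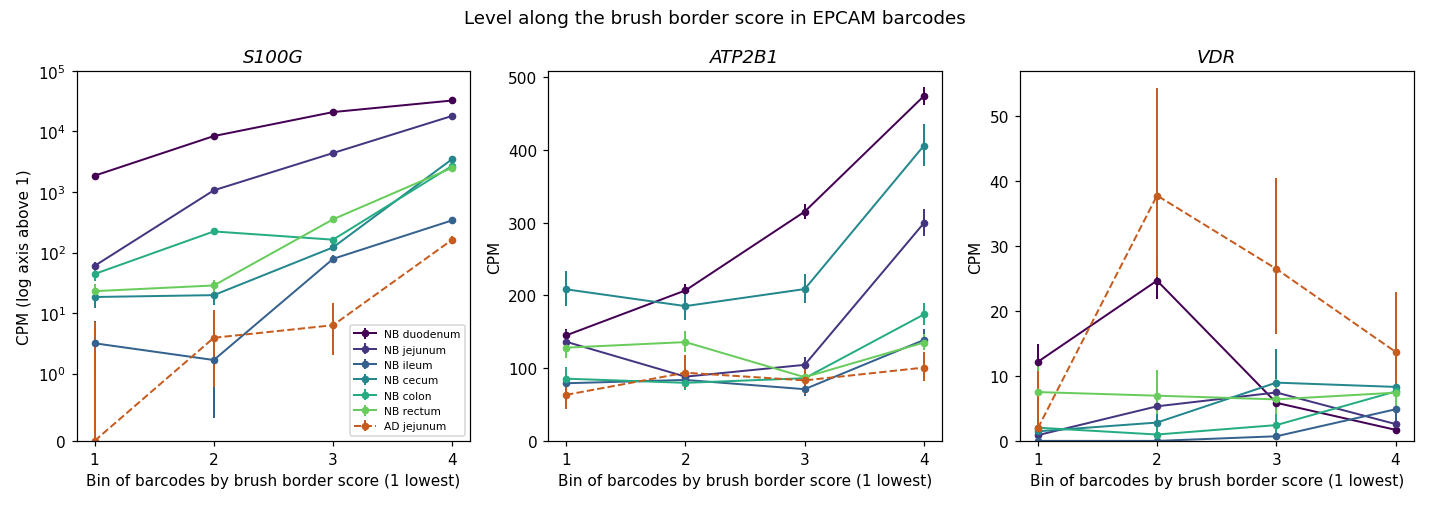
*S100G* (log axis above 1), *ATP2B1*, and *VDR* in CPM in the 4 bins of *EPCAM* barcodes by brush border score, for the NB intestine and the AD jejunum (dashed), with 95% Poisson intervals. *S100G* and *ATP2B1* are highest in the top bin of the NB duodenum (32412 and 474 CPM), and *VDR* of that library is lowest there (1.70 CPM).

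The libraries of both stages allowed 4 comparisons of NB with AD, in which stage, animal, and dissociation changed together. *S100G* was higher in NB in all 4 tissues, by 79.3-fold (70.2 to 90.0) in the duodenum and 108-fold (93.5 to 126) in the jejunum. In the cecum and colon the ratios were 3036 (840 to 25074) and 3018 (542 to 119234), each resting on 1 or 2 AD UMIs. In marker-free barcodes the duodenal ratio was 23.1-fold (20.4 to 26.2), the jejunal ratio was 104-fold (88.8 to 122), and the cecal ratio was 2706 (749 to 22351). The AD colon then held 0 UMIs, with an upper limit of 1.99 CPM, against 893 CPM in the NB colon. The size in the duodenum therefore depended on which barcodes were taken, and the direction did not. The AD duodenum and AD jejunum values rest on few barcodes, which the intervals do not take into account. The brush border list was itself lower in the AD duodenum, at a sum of 175 CPM against 1079 CPM in NB and 502 against 1156 CPM in marker-free barcodes. The part of this in the duodenal ratios of *S100G* and *ATP2B1* was not tested. The top marker-free bin of the AD duodenum, 12 barcodes with a median score of 1260 CPM, held 2383 CPM of *S100G* (2052 to 2752) and 90.2 CPM of *ATP2B1* (36.2 to 186). The NB bin nearest in score, at 1168 CPM, held 23171 and 330 CPM. These bins were paired after their values had been seen. Of the 49 marker-free barcodes of the AD duodenum, 5 carried 94.5% of the *S100G* UMIs and 1 held 160. The AD value of *S100G* therefore rests on very few barcodes.

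*TRPV6* in the NB duodenum, at 7.24 CPM (6.45 to 8.09), lay above the upper limit of 3.23 CPM for the 0 UMIs of the AD duodenum. In the other 3 tissues it was at 0 in both stages. In marker-free barcodes the upper limit of the AD duodenum was 12.1 CPM, above the NB level of 7.71 CPM, so a difference was not detectable at that depth. *ATP2B1* was higher in NB by 4.58-fold (3.66 to 5.82) in the duodenum, 2.15-fold (1.97 to 2.35) in the cecum, and 1.74-fold (1.53 to 1.98) in the jejunum, and higher in AD by 1.27-fold (1.14 to 1.41) in the colon, which was 1.83-fold (1.62 to 2.07) in marker-free barcodes. With a mitochondrial limit of 10% the colon difference of *ATP2B1* turned to a log2 of 0.031 in favor of NB.

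*VDR* lay on the other side. It was higher in AD by 7.24-fold (4.88 to 10.9) in the colon, 4.63-fold (3.22 to 6.65) in the jejunum, and 1.87-fold (1.25 to 2.84) in the cecum, and the intervals overlapped in the duodenum (12.3 and 10.4 CPM). In marker-free barcodes the AD duodenum held 39.4 CPM (20.4 to 68.8) from 12 UMIs, 3.70-fold (1.90 to 6.53) above NB, and in the cecum the intervals overlapped (15.6 and 9.51 CPM). Receptor and buffer thus differed in opposite directions between the stages in the jejunum and colon in both sets of barcodes. Markers of other epithelial cells moved with the stage as well. In marker-free barcodes the summed level of the tuft cell list was 407 CPM in the AD jejunum and 6.51 CPM in the NB jejunum, and that of the goblet cell list was 857 and 34.9 CPM. In the colon the enteroendocrine list stood at 2907 CPM in AD and 125 CPM in NB, and the tuft list at 131 and 21.7 CPM. The stem cell list (*LGR5*, *OLFM4*, *ASCL2*, and *SMOC2*) was higher in NB. It stood at 880 against 166 CPM in the jejunum and 6382 against 333 CPM in the colon. So was the enteroendocrine list in the jejunum, at 31.8 against 3.21 CPM. Their part in the result was not tested. Leukocyte barcodes of the AD libraries held 2.08 to 4.34 CPM of *VDR*, below the value of the *EPCAM* barcodes of each. The part of leukocyte RNA in the difference was not tested. The cecum difference of *VDR* turned to a log2 of 0.019 in favor of NB with a mitochondrial limit of 10%, and to 0.016 as a mean over barcodes. With the same mitochondrial limit *VDR* in the duodenum was higher in NB, at 18.1 CPM against 3.11 CPM (0.640 to 9.07) from 3 UMIs. The AD lead was then smaller in the jejunum, at 14.2 against 5.72 CPM, and in the colon, at 10.1 CPM (6.20 to 15.7) against 2.82 CPM (1.76 to 4.26).

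**Figure D5:**
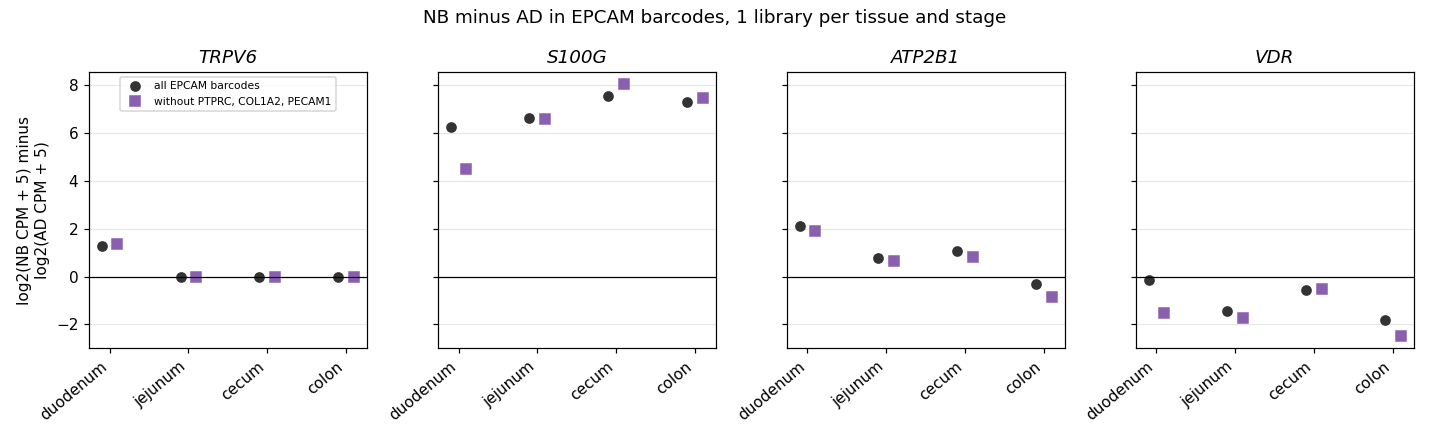
Difference between stages, log2(NB CPM + 5) minus log2(AD CPM + 5), in 4 tissues for all *EPCAM* barcodes (black circles) and for those without *PTPRC*, *COL1A2*, and *PECAM1* (purple squares). *S100G* lies between 4.52 and 8.04, *VDR* lies at or below -0.16, and *ATP2B1* is above 0 except in the colon (-0.33 and -0.84).

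The members were set against all genes with at least 10 CPM in at least 1 stage, a filter that *TRPV6* did not pass. Higher by 2-fold or more in NB, on the log2(CPM + 5) scale, were *S100G* and *ATP2B1* in the duodenum, where 16.3% of all 8431 genes were, *S100G* in the jejunum (7.75% of 8218 genes), *S100G* and *ATP2B1* in the cecum (10.9% of 8193), and *S100G* in the colon (4.57% of 8314). Higher by 2-fold or more in AD was *VDR* in the jejunum (12.7% of genes) and in the colon (18.6%), and no member in the duodenum (25.3%) or cecum (7.54%). In marker-free barcodes, past this fold in NB were *S100G* and *ATP2B1* in the duodenum (12.4% of genes) and *S100G* alone in the jejunum (6.52%), cecum (6.35%), and colon (4.41%). In AD it was *VDR* in the duodenum (21.5%), jejunum (14.2%), and colon (16.9%), and no member in the cecum (7.94%). *S100G* was past the fold in NB in all 4 tissues, as were 72 of 7080 genes (1.02%), and no member was past it in AD in all 4 (2.92%). Because these contrasts were used to choose the members, nothing is read from the counts. The median gene was shifted toward AD, by a log2 difference of -0.32 in the duodenum, -0.26 in the jejunum, -0.12 in the cecum, and -0.36 in the colon.

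None of the 4 genes had all 3 parts of the NB small intestine above all 3 parts of the NB large intestine, a pattern that 9.25% of 8789 genes had, and none had the reverse (10.1%). Of the 9 pairs of a small and a large intestinal library, the small one was higher in 6 pairs for *S100G* and *TRPV6*, 5 for *ATP2B1*, and 4 for *VDR*. The 3 pairs of *TRPV6* with the ileum rest on 2 UMIs. The NB ileum held the lowest *S100G*, *VDR*, and *ATP2B1* levels of the NB intestine, and also the lowest sum of the brush border list.

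A list of 50 further genes of calcium, phosphate, and vitamin D handling was read in the same barcodes. In the duodenum 22 passed the filter, of which 9 were at least 2-fold higher in NB (16.3% of all genes were) and 4 in AD (25.3%), and their median log2 difference was 0.56, beside -0.32 over all genes. In the jejunum 24 passed, 4 higher in NB (7.75%) and 5 in AD (12.7%), with a median of -0.31 beside -0.26. In the cecum 22 passed, 1 higher in NB (10.9%) and 5 in AD (7.54%), with a median of -0.18 beside -0.12. In the colon 23 passed, 3 higher in NB (4.57%) and 2 in AD (18.6%), with a median of -0.18 beside -0.36. In marker-free barcodes of the duodenum, 5 of 22 were higher in NB (12.4% of all genes) and 2 in AD (21.5%). The numbers were 5 (6.52%) and 6 (14.2%) of 24 in the jejunum, 3 (6.35%) and 4 (7.94%) of 24 in the cecum, and 1 (4.41%) and 4 (16.9%) of 24 in the colon. The list medians in these barcodes were 0.34 in the duodenum, -0.25 in the jejunum, -0.14 in the cecum, and -0.49 in the colon, beside -0.28, -0.29, -0.20, and -0.38 over all genes, so the list went from above to below all genes in the colon, and from below to above in the jejunum and cecum.

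Of the claudins of the route between cells, *CLDN15*, which forms cation pores, followed the small intestine. It stood at 326 CPM in the NB duodenum, 308 in the NB jejunum, and 151 in the NB ileum, against 1.63 to 4.86 CPM in the NB large intestine. The AD jejunum held 119 CPM and the AD duodenum 11.4 CPM (32.8 CPM in marker-free barcodes), so the NB level was higher in both. *CLDN2*, another cation claudin, stood at 4.86 to 11.2 CPM in the 6 NB libraries and at 0 to 1.81 CPM in the AD libraries.

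Of the buffers, *CALB1* had the reverse of this distribution. In the NB intestine it stood at 69.4 CPM (63.4 to 75.9) in the cecum, 29.9 (26.7 to 33.2) in the colon, and 24.4 (21.8 to 27.2) in the rectum, and at 0.359 to 3.28 CPM in the small intestine. The AD cecum held 4.62 CPM and the AD colon 9.85 CPM, and the AD duodenum and jejunum held none. Both calbindin genes were thus detected in the NB large intestine and were higher there than in the AD cecum and colon. In marker-free barcodes the colon difference of *CALB1* was a log2 of 0.69 in place of 1.23.

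Of the genes for extrusion and stores, *ATP2A3*, a calcium pump of the endoplasmic reticulum, was higher in AD in the duodenum (131 against 23.0 CPM), jejunum (282 against 21.6 CPM), and cecum (210 against 44.2 CPM), also in marker-free barcodes. In the colon it stood at 167 CPM in AD and 163 CPM in NB. *STIM1*, the store sensor that opens calcium entry, was at least 2-fold higher in AD in all 4 tissues, but in marker-free barcodes only in the duodenum and jejunum. Of the other plasma membrane pumps, *ATP2B4* stood at 2.63 to 12.6 CPM, *ATP2B2* at most at 1.75 CPM, and *ATP2B3* at 0 CPM in the 10 intestinal libraries.

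Of the vitamin D genes, *RXRA*, the partner of *VDR* on DNA, stood at 42.8 to 52.2 CPM in the NB libraries other than the ileum (16.5 CPM), and at 41.6 to 57.4 CPM in the AD libraries other than the duodenum (4.38 CPM, or 13.1 CPM in marker-free barcodes). *CYP24A1*, which breaks down the active hormone and is a classic target of the receptor, was at most 0.992 CPM in any intestinal library. *CUBN*, an endocytic receptor that takes up the vitamin D binding protein in kidney, stood at 47.6 CPM in the NB duodenum and 13.7 CPM in the NB jejunum, against 1.75 and 0.644 CPM in AD. *GC*, the binding protein itself, was seen at 12.9 CPM in the AD jejunum and at most 1.44 CPM elsewhere in the intestine.

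The genes most alike to each member over the 10 intestinal libraries were found by Pearson's r of log2(CPM + 5) among 7976 genes. These had at least 10 CPM in at least 3 of the libraries, a filter that *TRPV6* did not pass. The libraries of a stage share animals, dissociation, and cell makeup. For *S100G* they were *RPN1*, *DDAH1*, *SEC11C*, *SEC13*, and *SSR3* (r from 0.91 to 0.96), and for *TRPV6* they were *REEP3*, *PGRMC2*, *HSPA9*, *DNAJC28*, and *SLC39A14* (0.83 to 0.90). For *VDR* they were *CIPC*, *PJA2*, *UBE4A*, *HIPK2*, and *SIPA1L1* (0.96 to 0.98), and for *ATP2B1* they were *IGSF3*, *ROGDI*, *CYP51A1*, *EMC3*, and *GLRX5* (0.86 to 0.94). None of *S100G*, *VDR*, and *ATP2B1* was among the 5 genes of another member, and *TRPV6* could not be because of the filter. The pattern of *TRPV6* itself rests on 1 library with more than a few UMIs.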

How the data were processed

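scRNA-seq (10x Genomics) libraries of cattle were used, 1 per tissue and stage. The authors counted UMIs with Cell Ranger 3.1.0 on ARS-UCD1.2, and the deposited values are whole, unscaled UMI counts. The annotation release is not given in the sources used here. Total UMIs were 17707625 to 129458578 per library. Barcodes were kept if they had fewer than 50000 UMIs, a mitochondrial share below 40%, and 500 to 4000 genes, and doublets were removed by a Scrublet score at 0.8% per 1000 barcodes, which left 119798 of 172405. Libraries shared at most 84 barcodes (1.02% of the smaller one). UMIs were summed per library and scaled to CPM, with 95% exact Poisson and Clopper-Pearson intervals. No ratio was formed against a count of 0, and log2 differences used a pseudocount of 5 CPM and a filter of 10 CPM. With 1 library per group no test was made. Brush border bins, marked barcodes (at least 2 UMIs of a list), and the exact expected share after thinning to 1000 UMIs used lists of marker genes. None of 6 epithelial markers was at 0 in the intestinal *EPCAM* barcodes.

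The members and lists were chosen with earlier results of these data known. Named genes are the 4 members, the genes of the lists, and the 5 genes most alike to each member; the genes of *S100G*-rich barcodes and the subsets of leukocyte barcodes were chosen after their values were seen. *MUC2*, *FCGBP*, *ZG16*, and *SH2D6* were not analysed here, so the mucous list rests on *CLCA1* and *SPDEF*. The tools were scanpy 1.11.5, matplotlib 3.10.9, pandas 2.3.3, SciPy 1.17.1, and NumPy 2.4.6 under Python 3.11.15, and the fold calls were tested on simulated data. Alternatives concerned the filters, the doublets, the definition of epithelial barcodes, the scaling, the thinning, and the pseudocount.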

Additional observations from a re-analysis of the deposited data

Results flagged for a closer look

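*ATP2B1* differed between the stages in opposite directions in different tissues. The difference, log2(NB CPM + 5) minus log2(AD CPM + 5), was 2.11 in the duodenum, 0.77 in the jejunum, and 1.07 in the cecum, but -0.33 in the colon, with 1 library on each side and intervals that did not overlap. In the colon the difference turned to 0.031 with a mitochondrial limit of 10%, and AD was no longer above NB without genes above 1% of UMIs and as a mean over barcodes. That these differences differ between tissues was not tested.

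*S100G* appeared outside the epithelium in stomach libraries. The *EPCAM* barcodes of the NB reticulum and omasum held 8 UMIs each, 7 of them in 1 barcode in the omasum. In barcodes with *COL1A2* and no *EPCAM* or *PTPRC*, it stood at 48.1 CPM (32.9 to 67.8) in the NB reticulum and 10.3 CPM (4.96 to 19.0) in the NB omasum, against 0.162 and 0.110 CPM in the *EPCAM* barcodes. In the reticulum, 32 UMIs lay in 14 of 184 barcodes, at most 6 in 1 barcode, and all 14 also had the fibroblast genes *DCN* and *COL3A1*. The NB abomasum held 9 UMIs in 5 of 1095 such barcodes, or 2.08 CPM (0.953 to 3.96), beside 3 UMIs (0.0467 CPM) in its *EPCAM* barcodes. The NB salivary gland held 7 UMIs in 7 of 113 such barcodes (11.1 CPM), beside 0 in its *EPCAM* barcodes.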

How the results depend on the processing

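No paired analysis was possible because each group holds 1 library. The number of tissues with *TRPV6* higher in NB was 1 and became 0 with at least 2 *EPCAM* UMIs, in marker-free barcodes, with a mitochondrial share under 10%, and, in an alternative chosen after seeing the data, without both duodenum libraries. For *VDR* that number was 0 and became 1, the duodenum, with a mitochondrial share under 10%. The number of tissues with *ATP2B1* higher in AD was 1 and became 0 with that same mitochondrial limit, with CPM free of genes above 1% of UMIs, and with the mean of the CPM of each barcode. The log2 difference of *VDR* in the cecum was -0.56 and turned to 0.019 under the mitochondrial limit and to 0.016 as a mean over barcodes, and that of *ATP2B1* in the colon was -0.33 and turned to 0.031 under the mitochondrial limit. The cause was not tested. Of the 128 alternative values of these differences, 3 turned where the reported intervals of NB and AD did not overlap, 37 moved beyond the counting interval, and 88 did not. Among the last 2 groups, *VDR* in the duodenum, where these intervals overlapped, went from -0.16 to 1.51 under the mitochondrial limit, 0.033 with doublets kept, and 0.037 as a mean over barcodes. The difference of *VDR* under that limit was -0.84 in place of -1.45 in the jejunum and -0.95 in place of -1.80 in the colon. All 32 alternative counts of small and large intestinal pairs stayed within 1.5 times the reported ones.

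With a pseudocount of 20 CPM, the genes at least 2-fold higher in NB were 775 in place of 1373 in the duodenum, 327 in place of 637 in the jejunum, 469 in place of 894 in the cecum, and 166 in place of 380 in the colon. Those higher in AD were 1016 in place of 2130, 427 in place of 1044, 269 in place of 618, and 658 in place of 1549. Without the AD duodenum, 2 of the 5 genes most alike to *S100G*, 3 of those of *TRPV6*, 4 of those of *VDR*, and 3 of those of *ATP2B1* stayed among the first 5, and with Spearman's rho 1, 0, 2, and 1. The 202 *EPCAM* barcodes of the AD duodenum put the upper limit of its *TRPV6* zero at 3.23 CPM.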
